A study of Danio rerio with 4 samples.

Results

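The genes described here drive and mark the division of cells: 41 gene symbols for DNA replication, nucleotide supply, mitosis and the kinases that order them, read from a count table of endothelial cells of the zebrafish posterior cardinal vein. The symbols were matched, with case ignored, to the Ensembl symbols of the 32434 genes in the table. A row was found for 30 symbols, and 32 rows carried them, because MCM6 and RRM2 each had more than 1 row. Of these rows 29 had a count. The symbols ccne1, ccne2, mcm2, mcm7, ccnd1, cdc20, cenpa, birc5a, ube2c, hmgb2a and stmn1a matched no row and were not analysed here. The members were divided by role into 11 rows of the S phase, in which DNA is copied, 19 rows of mitosis and the approach to it, and 2 other rows. The roles and not the counts set this division.

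The table holds 2 ventral and 2 dorsal libraries, made with CEL-Seq, which tags the 3' end of each transcript. All embryos were of the Tg(fli1:gal4;uasKaede) line at 24 hours post fertilization, so ventral and dorsal cells share the transgene and the stage. In this line the fli1 promoter, active in endothelium among other cells, drives the protein Kaede, which light turns from green to red. Light was aimed at the lower side of the vein for the ventral libraries and at the upper side for the dorsal libraries, and the red cells of 6 embryos per group were sorted. Nothing in the labels tells whether both libraries of a side stem from different embryos. The p-values below thus refer to the scatter of 4 libraries, part of which may be technical. The title of the series places the source of lymphatic vessels in the floor of the vein, and the comparison of ventral with dorsal cells addresses that floor.

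In the S phase a ring of MCM proteins unwinds the DNA, PCNA clamps the polymerase to it, and ribonucleotide reductase and thymidylate synthase supply its building blocks. Mitosis then rests on CDK1 with its cyclins, on the aurora and polo kinases, and on spindle motors and kinetochore proteins that pull the chromosomes apart. Transcripts of the S-phase group peak earlier in the cycle than those of the mitotic group. Endothelial cells and the precursors of embryonic red cells both pass through this cycle.

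Gene counts totalled 108405 and 79527 in the ventral libraries 1 and 2, and 115876 and 51376 in the dorsal libraries 1 and 2. The members held 600 and 543 of these counts in the ventral libraries, against 1028 and 336 in the dorsal libraries. Those are 0.553% and 0.683% of ventral gene counts, and 0.887% and 0.654% of dorsal gene counts. Levels are given as CPM, counts per 1000000 gene counts after scaling of the libraries with TMM factors, a trimmed mean over genes. No member exceeded 218 counts, far from 1024, the ceiling that identifiers of 5 bases would set. That ceiling is an inference from the values. Dorsal library 2 had the fewest gene counts, with 4.68 per count of the ERCC spike-in RNAs, against 12.5 in dorsal library 1. The defining endothelial gene cdh5 gave 2 and 1 counts in the ventral libraries, against 4 and 0 in the dorsal libraries. Other endothelial genes were counted more, and differed in direction. TAL1, the listed endothelial row with the most counts, had 44 and 31 counts in the ventral libraries, against 63 and 34 in the dorsal libraries. After scaling TAL1 was lower in both ventral libraries. The gene stab2, a scavenger receptor of veins, had 33 and 30 counts in the ventral libraries, against 1 and 6 in the dorsal libraries. The 6 globin rows with the most counts lay above 900 counts in every library. Globin RNA, which marks red cells, was thus abundant in all libraries labelled as endothelial cells, and the cells in which the members were expressed were not identified. In bulk libraries, fewer dividing cells and less RNA per dividing cell cannot be told apart.

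No cell cycle gene passed the test between ventral and dorsal cells. Of the 29 rows with a count, 19 passed edgeR's filter on low counts and were tested, and 0 passed at an adjusted p of 0.05. Over all 1399 genes tested, 0.429% were called higher in the ventral libraries and 0% lower. At an unadjusted p under 0.05 edgeR had 0 members, DESeq2 0 and voom 2. Of all genes tested with edgeR, 7.51% were higher and 4.65% lower at that level. Of the same 1399 genes, 51 were higher and 7 lower with DESeq2, and 102 higher and 76 lower with voom. Adjusted p of the 19 tested members lay between 0.486 and 0.995 in edgeR's quasi-likelihood test. With a filter of a mean of at least 5 counts instead, 2 of 25 members had an unadjusted p under 0.05 (edgeR). Of all 2423 genes in that fit, 170 were higher and 77 lower at that level. Summed over their roles, the mitotic members averaged 1811 ± 25.7 CPM in the ventral libraries and 2702 ± 487 CPM in the dorsal libraries (SD, n = 2 each). The S-phase members averaged 3692 ± 851 CPM in the ventral libraries and 4430 ± 1179 CPM in the dorsal libraries (SD, n = 2 each). After TMM scaling the mitotic sums were lower in the ventral libraries without overlap, and the S-phase sums overlapped. The mitotic order depended on the scaling. Dorsal library 2 had the fewest mitotic counts, 144, and the most ERCC counts, 10968, so per ERCC count its mitotic sum was the lowest.

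**Figure D1:**
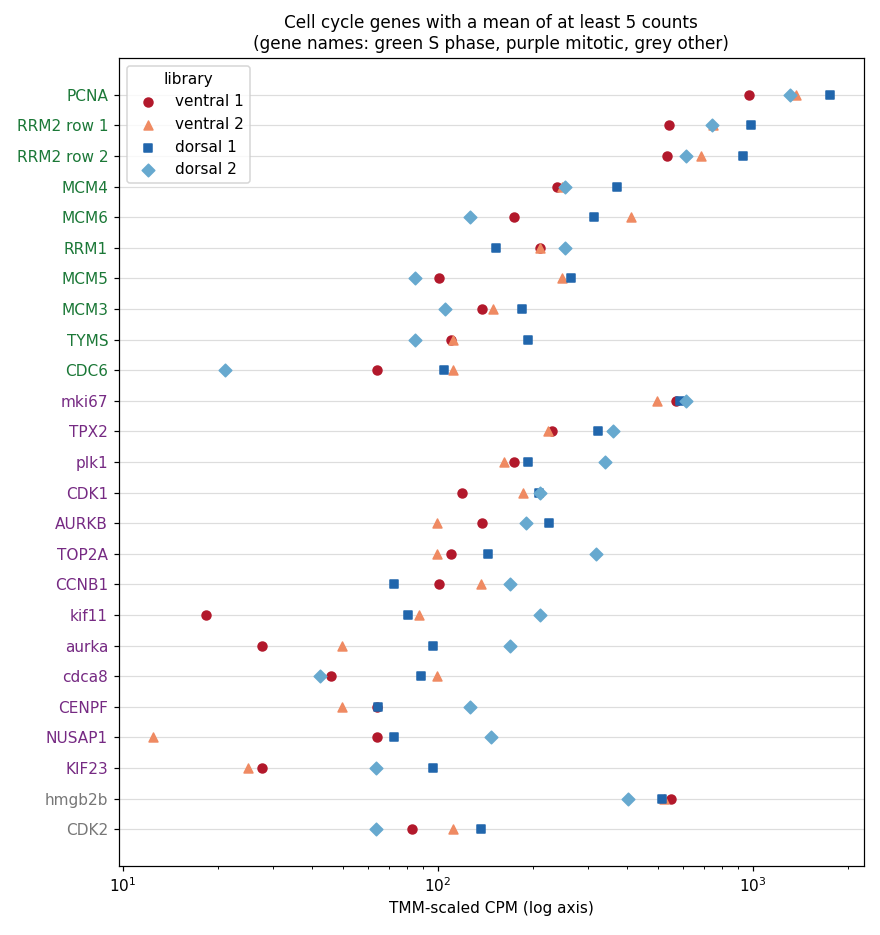
Level of each cell cycle gene with a mean of at least 5 counts, as TMM-scaled CPM on a log axis, with 1 point per library. Red points are the ventral libraries and blue points the dorsal libraries. For TPX2 and AURKB both ventral points lie left of both dorsal points, and for MCM5 and CDC6 dorsal library 2 is the lowest point.

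Among S-phase genes PCNA (ENSDARG00000054155), the sliding clamp of DNA polymerase, gave the most counts. It had 106 and 110 counts in the ventral libraries, against 218 and 62 in the dorsal libraries. After scaling these were 975 and 1369 CPM in ventral cells, and 1755 and 1312 CPM in dorsal cells. Dorsal library 1 was highest and ventral library 1 lowest, and the sides overlapped, since ventral library 2 lay above dorsal library 2. The log2 fold, ventral over dorsal, was -0.42 ± 0.21 (SE), and PCNA did not pass (adjusted p = 0.486, edgeR).

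RRM2, the small subunit of ribonucleotide reductase, was carried by a pair of rows with nearly equal counts. The row ENSDARG00000020711 had 59 and 60 counts in the ventral libraries, against 123 and 35 in the dorsal libraries. The row ENSDARG00000078069 had 58 and 55 counts in the ventral libraries, against 116 and 29 in the dorsal libraries. Whether the rows share reads cannot be traced in the table, so their values are uncertain and may not be independent. Both followed the order of PCNA, with dorsal library 1 highest and ventral library 1 lowest. Their log2 folds were -0.46 ± 0.24 and -0.39 ± 0.25 (SE), with adjusted p of 0.499 and 0.641 in edgeR's test. The large subunit RRM1 (ENSDARG00000014017) had 23 and 17 counts in the ventral libraries, against 19 and 12 in the dorsal libraries. Its dorsal libraries lay on either side of the ventral ones, at 212 and 212 CPM in ventral cells, and 153 and 254 CPM in dorsal cells. RRM1 had a log2 fold of 0.17 ± 0.38.

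The MCM helicase was covered by MCM3, MCM4, MCM5 and 1 row of MCM6, since the other MCM6 row (ENSDARG00000033231) had 0 counts. MCM4 (ENSDARG00000040041) had 26 and 20 counts in the ventral libraries, against 46 and 12 in the dorsal libraries. At 239 and 249 CPM in ventral cells, and 370.2 and 254 CPM in dorsal cells, it was the S-phase row in which the sides did not overlap, by a margin of few counts. MCM6 (ENSDARG00000057683) had 19 and 33 counts in the ventral libraries, against 39 and 6 in the dorsal libraries. Its highest level was in ventral library 2, at 411 CPM, and its lowest in dorsal library 2, at 127 CPM. MCM5 (ENSDARG00000019507) had 11 and 20 counts in the ventral libraries, against 33 and 4 in the dorsal libraries. Its levels were 101 and 249 CPM in ventral cells, and 266 and 84.6 CPM in dorsal cells, so libraries of 1 side differed more than the sides did. MCM3 (ENSDARG00000024204) had 15 and 12 counts in the ventral libraries, against 23 and 5 in the dorsal libraries. The log2 folds of MCM3, MCM4, MCM5 and MCM6 were -0.15 ± 0.44, -0.41 ± 0.32, -0.27 ± 0.55 and 0.22 ± 0.49 (SE).

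Thymidylate synthase, encoded by TYMS (ENSDARG00000042894), had 12 and 9 counts in the ventral libraries, against 24 and 4 in the dorsal libraries. CDC6 (ENSDARG00000009942), which loads the MCM ring at origins, had 7 and 9 counts in the ventral libraries, against 13 and 1 in the dorsal libraries. In both genes the dorsal pair enclosed the ventral pair or reached below it. Their log2 folds were -0.49 ± 0.50 and 0.15 ± 0.71 (SE). The interval of CDC6, from -1.27 to 1.57 at 2 SE, leaves a difference of either sign possible.

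**Figure D2:**
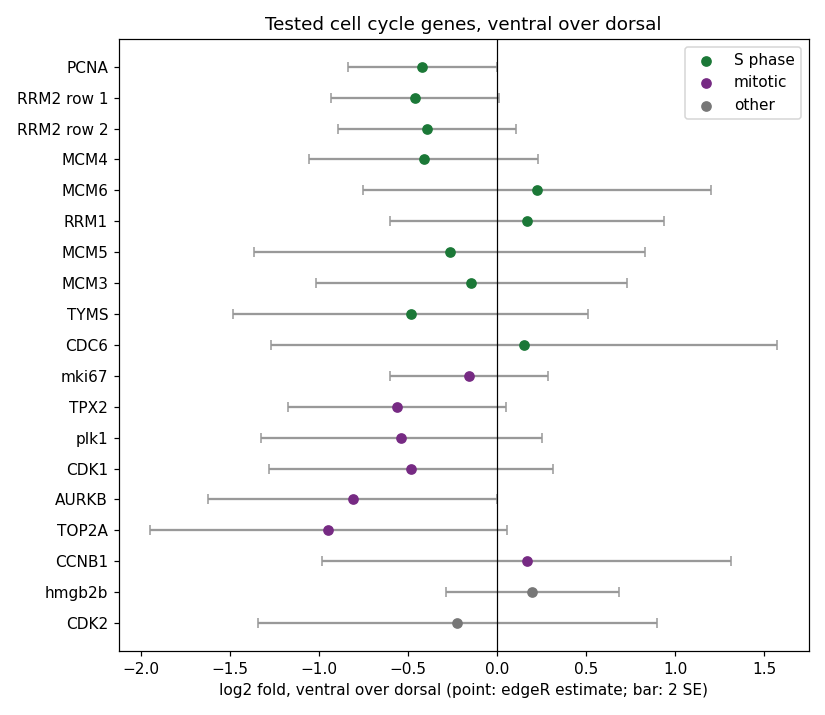
Log2 fold of the 19 tested cell cycle genes, ventral over dorsal, with points for edgeR's estimates and bars of 2 SE. The estimates run from -0.95 for TOP2A to 0.22 for MCM6. The bars of PCNA and AURKB end close to 0.

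The levels of most mitotic genes were ordered by side. Among the 13 mitotic rows with a mean of at least 5 counts, 10 were lower in both ventral libraries than in either dorsal library and 0 were higher. Over all 2423 genes with such a mean, 19.1% were lower in both ventral libraries and 19.9% higher. Of the 10 S-phase rows with such a mean, 1 was lower in both ventral libraries and 0 were higher. In a separate edgeR fit of these 2423 genes, the median log2 fold was -0.55 over the 13 mitotic rows and -0.29 over the 10 S-phase rows. Over all 2423 genes it was 0.0105. The log2 folds printed for single genes come from the fit of 1399 genes. These medians and counts describe the rows and carry no test. The mean count was taken over all 4 libraries, so rows with few ventral counts could enter through their dorsal counts. This was so for aurka, KIF23, NUSAP1 and kif11, of which kif11 alone overlapped between the sides. Of the mitotic rows below that mean, bub1bb was higher in both ventral libraries and ndc80 lower in both, on few counts. Some of the orderings were narrow, as in CENPF, with 64.37 CPM in ventral library 1 and 64.39 CPM in dorsal library 1.

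The mitotic count depended on how the libraries were scaled. It was 9 of 13 with DESeq2's size factors, where 18.6% of all 2423 genes were lower in both ventral libraries. With total gene counts it was 9 of 13, where 18.3% of all genes were. Scaled to the ERCC spike-ins it was 3 of 13, where 1.73% of all 2423 genes were lower in both ventral libraries. Scaled to the summed red cell genes, an alternative added after the data were seen, it was 5 of 13, where 7.76% of all genes were. With 3 libraries the ordering is easier to meet. It held for 12 of 13 mitotic rows without dorsal library 1, where 36.1% of all genes met it, and for 9 of 13 without dorsal library 2, where 33.2% did.

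TPX2 (ENSDARG00000078654), which activates aurora A on the spindle, had 25 and 18 counts in the ventral libraries, against 40 and 17 in the dorsal libraries. These were 229.9 and 224 CPM in ventral cells, and 322 and 359.6 CPM in dorsal cells, so that libraries of a side lay closer to each other than to the other side. Its log2 fold was -0.57 ± 0.31 (SE; adjusted p = 0.530, edgeR). AURKB (ENSDARG00000037640), aurora B of the chromosomal passenger complex, had 15 and 8 counts in the ventral libraries, against 28 and 9 in the dorsal libraries. It stood at 138 and 99.6 CPM in ventral cells, and 225 and 190.4 CPM in dorsal cells, again without overlap. Its log2 fold was -0.81 ± 0.41 (SE; adjusted p = 0.486, edgeR).

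TOP2A (ENSDARG00000024488), the topoisomerase that untangles sister chromatids, had 12 and 8 counts in the ventral libraries, against 18 and 15 in the dorsal libraries. It was at 110.3 and 99.6 CPM in ventral cells, and 145 and 317 CPM in dorsal cells, with dorsal library 2 far above the rest. TOP2A had the lowest log2 fold of the tested members, -0.95 ± 0.50 (SE; adjusted p = 0.521, edgeR). Without dorsal library 1 it stood at -1.57, and without dorsal library 2 at -0.42. The polo kinase gene plk1 (ENSDARG00000058471), which acts from mitotic entry to exit, had 19 and 13 counts in the ventral libraries, against 24 and 16 in the dorsal libraries. At 175 and 162 CPM in ventral cells, and 193 and 339 CPM in dorsal cells, it too was highest in dorsal library 2. Its log2 fold was -0.54 ± 0.40.

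CDK1 (ENSDARG00000087554), the kinase that starts mitosis, had 13 and 15 counts in the ventral libraries, against 26 and 10 in the dorsal libraries. Its levels were 119.5 and 187 CPM in ventral cells, and 209 and 212 CPM in dorsal cells. The sides did not overlap, and the log2 fold was -0.48 ± 0.40 (SE). Its partner CCNB1 (ENSDARG00000051923), cyclin B, had 11 and 11 counts in the ventral libraries, against 9 and 8 in the dorsal libraries. Dorsal library 1 was the lowest for CCNB1, at 72.4 CPM, and dorsal library 2 the highest, at 169 CPM, so the sides overlapped. The log2 fold of CCNB1 was 0.17 ± 0.57.

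The proliferation marker mki67 (ENSDARG00000091150), whose product coats mitotic chromosomes, was the mitotic row with the most counts. It had 62 and 40 counts in the ventral libraries, against 73 and 29 in the dorsal libraries. At 570.1 and 498 CPM in ventral cells, and 588 and 614 CPM in dorsal cells, its level varied little among the 4 libraries. The log2 fold was -0.16 ± 0.22 (SE; adjusted p = 0.893, edgeR), an interval of -0.60 to 0.29 at 2 SE. Without mki67 the log2 ratio of the summed mitotic members was -0.72, against -0.58 with it.

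The other 10 mitotic rows with a count were below edgeR's filter and had no test in the main setting. A fit without a filter tested all 29 member rows with a count, and 0 passed (edgeR). Their ratios, ventral over dorsal, are of counts summed per side and divided by the TMM-scaled library sizes of that side. The exact 95% intervals cover counting error only. The kinase gene aurka (ENSDARG00000012485), aurora A of the spindle poles, had 3 and 4 counts in the ventral libraries, against 12 and 8 in the dorsal libraries. The ratio was 0.317, with an interval of 0.113 to 0.782. KIF23 (ENSDARG00000014943), a motor of the midbody, had 3 and 2 counts in the ventral libraries, against 12 and 3 in the dorsal libraries, a ratio of 0.302 (0.086 to 0.875). The spindle motor gene kif11 (ENSDARG00000010948) had 2 and 7 counts in the ventral libraries, against 10 and 10 in the dorsal libraries, a ratio of 0.408 (0.164 to 0.938). In kif11 ventral library 2 reached 87.1 CPM, above the 80.5 CPM of dorsal library 1, so the sides overlapped.

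The remaining low rows gave intervals that include 1. NUSAP1, a spindle microtubule protein, had 7 and 1 counts in the ventral libraries, against 9 and 7 in the dorsal libraries. The kinetochore genes ndc80 and CENPF had 7 and 11 counts over the ventral pair, and 12 and 14 over the dorsal pair. Borealin, the passenger protein encoded by cdca8, had 13 counts over the ventral pair and 13 over the dorsal pair. CCNB2, a second cyclin B, had 6 counts over the ventral pair and 4 over the dorsal pair. The checkpoint genes bub1bb and bub1 had 5 and 1 counts over the ventral pair, and 1 and 0 over the dorsal pair, and bub1bb was the low row with the highest ratio, 4.54 (0.507 to 215). CCNA2, cyclin A, and birc5b, a survivin gene, were not counted in any library, and a level of up to 8.45 CPM over the 4 libraries together remains possible at a count of 0.

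Of the 2 members outside both groups, hmgb2b (ENSDARG00000053990) encodes a chromatin protein of dividing cells. It had 60 and 42 counts in the ventral libraries, against 64 and 19 in the dorsal libraries. At 552 and 523 CPM in ventral cells, and 515 and 402 CPM in dorsal cells, it was the tested member that was higher in both ventral libraries. Its log2 fold was 0.20 ± 0.24 (SE; adjusted p = 0.887, edgeR). CDK2 (ENSDARG00000026577), the kinase of S-phase entry, had 9 and 9 counts in the ventral libraries, against 17 and 3 in the dorsal libraries. Its sides overlapped, with a log2 fold of -0.22 ± 0.56.

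**Figure D3:**
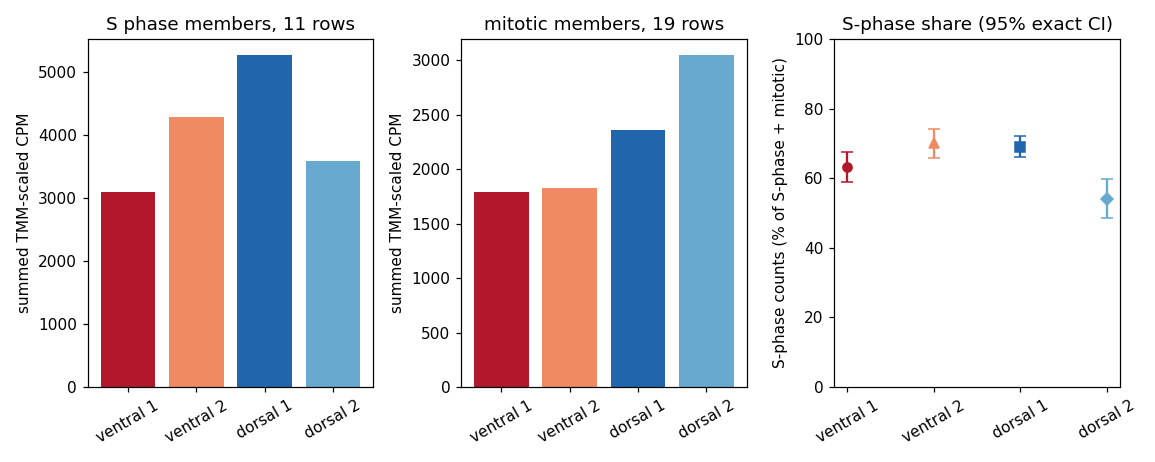
Summed TMM-scaled CPM of the S-phase rows and of the mitotic rows per library (bars from 0), and the share of S-phase counts in S-phase plus mitotic counts with exact 95% intervals. Mitotic bars are 1793 and 1829 CPM in the ventral libraries, against 2358 and 3046 CPM in the dorsal libraries. The S-phase share is lowest in dorsal library 2, at 54.1%.

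The balance between S-phase and mitotic transcripts was then set per library, as a share that does not depend on scaling. S-phase rows held 336 counts in ventral library 1 and 345 in ventral library 2, and 654 in dorsal library 1 and 170 in dorsal library 2. Mitotic rows held 195 and 147 counts in the ventral libraries, against 293 and 144 in the dorsal libraries. The S-phase share was thus 63.3% in ventral library 1 (exact 95% interval 59.0% to 67.4%) and 70.1% in ventral library 2 (65.9% to 74.1%). It was 69.1% in dorsal library 1 (66.0% to 72.0%) and 54.1% in dorsal library 2 (48.5% to 59.7%). The intervals cover counting error only. Ventral libraries averaged 66.7% ± 4.84 and dorsal libraries 61.6% ± 10.6 (SD, n = 2 each), so the difference of 5.10 percentage points was smaller than the dorsal spread. Without dorsal library 2 the difference was -2.36 points, and without dorsal library 1 it was 12.6 points. Leaving out the second RRM2 row, an unplanned check, gave 5.46 points. A shift of the balance between the sides was therefore not resolved.

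Among the members, the dorsal libraries differed from each other in a way that followed the roles. Of the 10 S-phase rows with a mean of at least 5 counts, 9 were lower in dorsal library 2 than in dorsal library 1, with a median log2 ratio of -0.71. Both RRM2 rows, which may share reads, are counted here and below. Of the 13 such mitotic rows, 3 were lower in dorsal library 2, with a median of 0.81. Over all 2423 genes 48.2% were lower in dorsal library 2, with a median of 0.016. CDC6 at -2.31, MCM5 at -1.65 and MCM6 at -1.31 had the lowest log2 ratios of the S-phase rows. They rested on 1, 4 and 6 counts in dorsal library 2. RRM1 at 0.73 was the S-phase row with a ratio above 0. The mitotic rows kif11 at 1.39, CCNB1 at 1.22 and TOP2A at 1.13 had the highest. A further list of mitotic genes, given below, summed to 4539 CPM in dorsal library 1 and 4464 CPM in dorsal library 2. That sum did not rise in dorsal library 2. Further replication genes summed to 4700 and 3808 CPM in the same order.

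The ventral libraries differed in the opposite sense for S-phase rows. All 10 were at or above their ventral library 1 level in ventral library 2, by a median log2 ratio of 0.41, and RRM1 was nearly equal. MCM5 had the largest ratio, followed by MCM6 at 1.23. Of the 13 mitotic rows 8 were lower in ventral library 2, with a median of -0.11, close to all 2423 genes, of which 49.9% were lower with a median of -0.0039. NUSAP1 and kif11 lay farthest apart, at -2.37 and 2.24 on few counts. With 1 pair per side, these differences between libraries have no replicate.

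**Figure D4:**
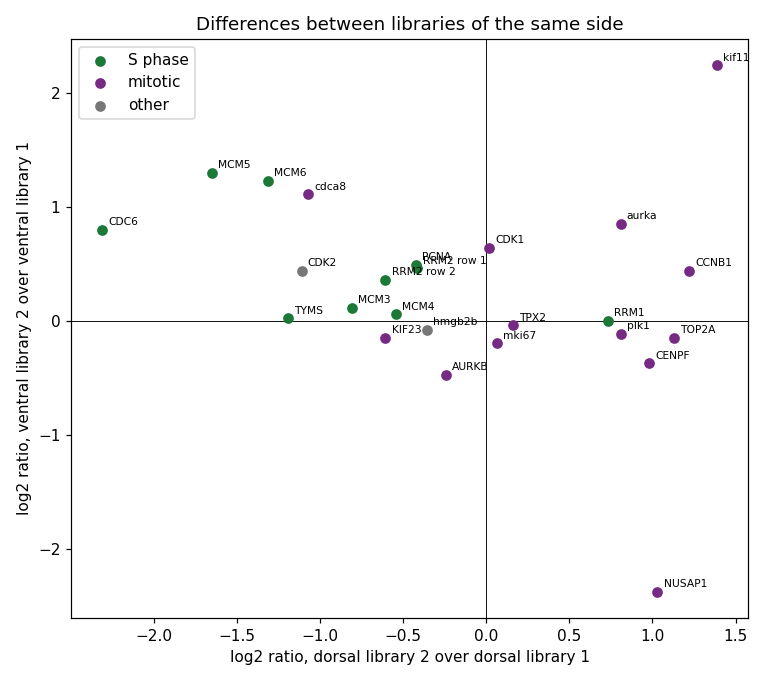
Differences between libraries of the same side, for cell cycle genes with a mean of at least 5 counts. The x axis gives the log2 ratio of dorsal library 2 over dorsal library 1 and the y axis that of ventral library 2 over ventral library 1. S-phase genes other than RRM1 lie left of 0, and 10 of 13 mitotic genes lie right of it.

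With each library left out in turn and TMM scaling, the log2 ratio of the mitotic sum stayed below 0 and that of the S-phase sum did not. On this scale both ventral mitotic sums lay below both dorsal ones, so the mitotic sign was nearly fixed in advance and gives no separate support. Per ERCC count dorsal library 2 lay below both ventral libraries, so that order did not hold there. Libraries were not left out on the ERCC scale. The log2 ratio of the mitotic sum was -0.58 with all libraries. It was -0.56 without ventral library 1, -0.57 without ventral library 2, -0.75 without dorsal library 1 and -0.34 without dorsal library 2. The log2 ratio of the S-phase sum was -0.26 with all libraries, -0.039 without ventral library 1 and -0.49 without ventral library 2. Without dorsal library 1 it turned to 0.043, and without dorsal library 2 it was -0.47. The S-phase value thus turned with the choice of dorsal library. No member passed the threshold in any of these fits, where the smallest adjusted p of a member was 0.174, for PCNA without dorsal library 2.

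**Figure D5:**
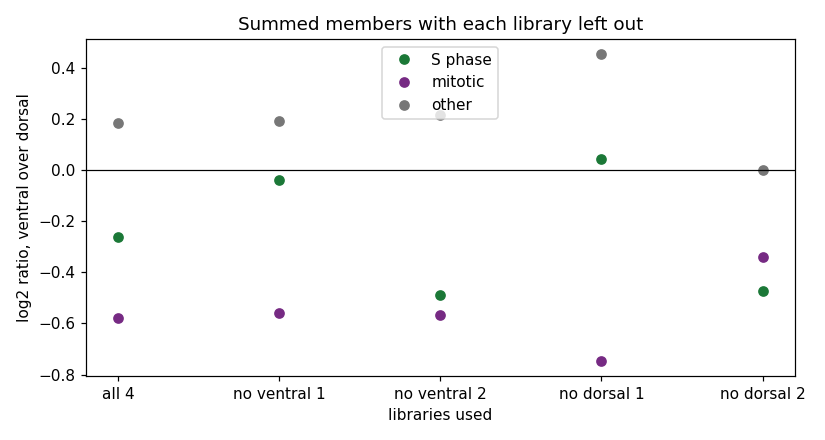
Log2 ratio of summed TMM-scaled CPM, ventral over dorsal, for S-phase, mitotic and other members, with all 4 libraries and with each left out. Mitotic points run from -0.75 to -0.34, and S-phase points from -0.49 to 0.043.

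Further genes of the cycle came from lists of symbols by function. Among 65 symbols of spindle, kinetochore, condensin and cohesin proteins and their regulators, 50 rows matched and 15 were tested, of which 0 passed (edgeR). Of the 24 rows with a mean of at least 5 counts, 10 were lower in both ventral libraries and 0 were higher, where 19.1% of all 2423 genes were lower and 19.9% higher. This count was the same with DESeq2's size factors and with total gene counts. Of all genes 18.6% and 18.3% were then lower, and 20.9% and 19.8% higher. The count differed with ERCC totals and with the red cell sum. With ERCC totals 0 of 24 were lower and 0 higher, where 1.73% of all 2423 genes were lower and 17.6% higher. With the red cell sum 1 was lower and 2 were higher, where 7.76% of all genes were lower and 35.7% higher. Rows with few ventral counts could enter the 24 through their dorsal counts, as SMC2 and cks2 did. The list's sum was 3408 ± 372 CPM in the ventral libraries and 4501 ± 53.5 CPM in the dorsal libraries (SD, n = 2 each). SMC4 of condensin, cdc25b and SMC3 of cohesin had the most counts. The phosphatase gene cdc25b, which activates CDK1, had 25 and 9 counts in the ventral libraries, against 76 and 8 in the dorsal libraries. Dorsal library 1 alone was high, and the log2 fold was -1.29 ± 0.52 (SE; adjusted p = 0.349, edgeR). SMC4 and SMC3 stood at -0.19 ± 0.29 and -0.28 ± 0.37.

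Replication genes beyond the members lay near the background. Of 54 symbols 43 rows matched and 12 were tested, and 0 passed (edgeR). Among the 25 rows with a mean of at least 5 counts, 6 were lower in both ventral libraries and 4 were higher, or 24% and 16%, against 19.1% and 19.9% of all 2423 genes. Their sum was 3915 ± 517 CPM in the ventral libraries and 4254 ± 631 CPM in the dorsal libraries (SD, n = 2 each). DNA ligase LIG1 and the chromatin assembly gene chaf1a stood at log2 folds of 0.12 ± 0.24 and 0.15 ± 0.29 (SE). GMNN, geminin, which blocks a second loading of origins and is degraded as cells leave mitosis, had 25 and 18 counts in the ventral libraries, against 35 and 31 in the dorsal libraries. Its levels were 230 and 224 CPM in ventral cells, and 282 and 656 CPM in dorsal cells, with dorsal library 2 far above the rest. GMNN stood at -0.93 ± 0.41 (adjusted p = 0.401, edgeR).

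The lists of G1/S regulators, of CDK inhibitors and arrest genes, and of the ubiquitin ligase APC/C gave 0 called genes among 3, 7 and 1 tested (edgeR). Of the first, e2f2, E2F8 and MYCN had the most counts, with log2 folds of -0.012 ± 0.47, 0.34 ± 0.48 and 0.30 ± 0.59 (SE). Of the second, CCNG1, a p53 target, stood at -0.15 ± 0.27, and the antiproliferative genes BTG2 and BTG1 at 0.83 ± 0.29 and 1.02 ± 0.36. BTG1 had 53 and 29 counts in the ventral libraries, against 20 and 14 in the dorsal libraries, and did not pass (adjusted p = 0.302, edgeR). Of the third, FZR1, which directs the ligase to mitotic proteins in G1, stood at -0.83 ± 0.52, and CDC23 and ANAPC16 had 10 and 6 counts over the ventral pair, and 11 and 14 over the dorsal pair.

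Markers of several cell types were also summed per library, and 0 of those tested passed between the sides (edgeR). Red cell genes below the ceiling, 20 matched rows, summed to 14032 and 13727 CPM in the ventral libraries, against 18181 and 15654 CPM in the dorsal libraries, which did not overlap. Of the 16 such rows with a mean of at least 5 counts, 8 were lower in both ventral libraries and 2 were higher, against 19.1% and 19.9% of all 2423 genes. With ERCC totals 0 of 16 were lower and 0 higher, where 1.73% of all genes were lower and 17.6% higher. The red cell regulator gata1a had 66 and 35 counts in the ventral libraries, against 86 and 26 in the dorsal libraries. Endothelial genes, 25 matched rows, summed to 2455 and 2389.5 CPM in the ventral libraries, against 1151 and 1713 CPM in the dorsal libraries. TAL1 and LMO2 gave 63 and 25 of the 143 counts of this sum in dorsal library 1, and 34 and 10 of the 81 in dorsal library 2. Of the 10 endothelial rows with a mean of at least 5 counts, 8 were higher in both ventral libraries and 1, TAL1, was lower. Of all 2423 genes 19.9% were higher and 19.1% lower. Rows with few dorsal counts could enter through their ventral counts here, as stab2, DUSP5, etsrp, SOX7 and tek did. Epidermal markers, 19 rows, summed to 4119.5 and 1568 CPM in the ventral libraries, against 708 and 1354 CPM in the dorsal libraries, with krt4 counted in ventral library 1 alone. Myeloid markers, 14 rows, summed to 267 and 187 CPM in the ventral libraries, against 88.5 and 783 CPM in the dorsal libraries, and lyz had 17 of its 20 counts in dorsal library 2. Neural markers summed to 147 and 149 CPM in the ventral libraries, against 145 and 127 CPM in the dorsal libraries. Muscle markers had at most 4 counts in a library, with MYOD1 and MYOG at 0 in all. The part of these cell types in the levels of the mitotic and S-phase genes was not tested.

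The scale of comparison moved all genes together. Scaled to the red cell sum below the ceiling, the log2 ratio was 0.038 for the S-phase members, -0.31 for the mitotic members and -0.038 for all members, while the median of the 2423 genes with a mean of at least 5 counts was 0.28. Scaled to the endothelial sum it was -1.13, -1.36 and -1.16 in the same order, with a median of all genes of -0.82. Scaled to the ERCC totals the S-phase members stood at -0.17 and the mitotic members at -0.24, with a median of 0.24. Relative to the median of all genes, the mitotic sum was at -0.59, -0.54 and -0.48 under these 3 scalings and at -0.58 under TMM. The S-phase sum was at -0.24, -0.31 and -0.41 relative to that median, and at -0.26 under TMM. Each scaling multiplies all genes of a library by the same factor. Values relative to the median therefore stay similar largely by construction and give no separate support. The mitotic sums of the sides overlapped under the red cell and ERCC scalings. The red cell and endothelial scalings were added after the data were seen.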

How the data were processed

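RNA of sorted endothelial cells was measured with CEL-Seq in 2 ventral and 2 dorsal libraries. Per the labels' protocols, primers carried unique molecular identifiers and ERCC spike-ins were added. The submitters' processing notes name CASAVA 1.8, Bowtie2 2.1.0, HTSeq 0.5.4p3 and the build Zv9 but not what each was used for. As deposited, the table gives counts in whole numbers for each Ensembl gene and 92 ERCC spike-ins. Another 5 rows without a gene name held 96.4% to 97.4% of each column and stayed out of library sizes and tests. No gene or spike-in exceeded 1024, so their counts were read as distinct identifiers, an inference from the values. Reads placed at several sites had a count of 0, and the sources used here do not give the strand setting.

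Symbols came from an Ensembl table that named 20769 of 32434 genes. Counts were tested with edgeR 4.0.16 in R 4.3.3 (filterByExpr, TMM, quasi-likelihood F test, 2-sided, Benjamini-Hochberg over 1399 genes, threshold 0.05, 2 residual degrees of freedom). CPM used library sizes times TMM factors, rescaled to the geometric mean of the totals. Sums of members got no test. DESeq2 1.42.0, voom from limma 3.58.1, other scalings, other filters, a correction for repeated identifiers and fits without each library were alternatives. The edgeR script was checked on simulated data. Replicate libraries differed beyond sampling noise (chi-square per degree of freedom 1.94 ventral, 3.06 dorsal). Members and lists were chosen with earlier results of these data known. All members are described, and other genes were named by their counts within each list. Sequences are not used here.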

Additional observations from a re-analysis of the deposited data

How the results depend on the processing

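No member passed the threshold under any of the 12 alternatives, and 210 of 224 pairs of member and alternative kept their direction. Voom turned CDC6 to -0.029, and ERCC scaling turned mki67 to 0.10 and MCM3 to 0.050. With 1 library left out, log2 folds ranged from -0.51 to 0.73 for CCNB1, -0.47 to 0.019 for CDK2 and -0.33 to 0.44 for MCM3. The ranges were -0.94 to 0.99 for MCM5, -0.45 to 1.16 for MCM6, -0.26 to 0.50 for RRM1 and -0.24 to -0.18 for CDC6. CDC6 was tested only without ventral library 2 and without dorsal library 2. CDK2 and TYMS were not tested without dorsal library 1. Genes called higher in ventral over the whole table numbered 6, against 0 with ERCC totals, DESeq2 and voom, 11 with total gene counts, 43 without a filter, 21 with the identifier correction and 9 to 87 with 1 library left out. Genes called lower numbered 0, against 4 without a filter, 1 with the identifier correction and 7 to 14 with 1 library left out. At an unadjusted p under 0.05, 65 genes were lower in edgeR, 7 in DESeq2 and 76 in voom.

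The summed mitotic members moved to a log2 ratio of -0.24 with ERCC totals, -0.31 scaled to red cell markers and -1.36 scaled to endothelial markers, and the summed members to -0.038 and -1.16 with the last pair. The summed S-phase members moved to -1.13 with endothelial markers. The count of mitotic rows lower in both ventral libraries was 10, against 3 with ERCC totals and 5 with red cell markers. That of S-phase rows was 1, against 0 with ERCC totals, total gene counts and red cell markers, and 1 to 7 with 1 library left out. Of all 2423 genes, 19.1% were lower in both ventral libraries in the main setting. The share was 1.73% with ERCC totals, 18.3% with total gene counts and 7.76% with red cell markers. With 1 library left out, where the ordering is easier to meet, it was 30.8% to 36.1%. The cause of these changes was not tested. No paired analysis was possible from the labels, because the library numbers in the titles all differ and no label names pairs. Each ventral library's number is followed directly by that of a dorsal library, but whether this marks a pair is not stated. Depth left 10 member rows with too few counts for a test in the main setting.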
